A study of Homo sapiens with 16 samples.

Results

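The matrix metalloproteases MMP1, MMP2, MMP14, MMP15, MMP16, MMP17 and MMP24 and the tissue inhibitors of metalloproteases TIMP1, TIMP2 and TIMP3 were followed through 16 poly-A RNA libraries of human melanoma that had grown in mouse lungs. They were taken by gene symbol, and 10 of 10 were among the 26475 rows of the count table and among the 16012 genes that passed the low-count filter. The tumours came from A375 MA2-Luc cells, an established human melanoma line, of which 250000 were given behind the eye of NSG mice, a strain without working lymphocytes or natural killer cells. Each of 4 groups held 4 libraries: tumours of mice on a ketogenic diet with inhibitors, ketogenic without inhibitors, high fat with inhibitors and high fat without. The inhibitors act on BRAF kinase and on MEK 1/2 and were given by oral gavage 3 times a week for 5 weeks, while their compounds and doses are not in the labels. No gavage is named for mice without inhibitors, so gavage and inhibitors cannot be told apart. Ages of the mice are not in the labels, and the labels do not tie replicates to single mice, so p-values measure the spread between these libraries. All tumours share the one line, and since the design text mentions culture as well, a culture step before extraction cannot be told from these sources.

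Matrix metalloproteases are zinc enzymes that cut collagens and other proteins around cells. They are made as inactive precursors, and TIMP proteins block them by filling the active site. At the cell surface MMP14 and TIMP2 together hold and activate the precursor of MMP2, which makes these 3 proteins a unit that is much studied in melanoma invasion. Many MMP genes respond to MAP kinase signalling through AP-1 and ETS factors, the pathway in which BRAF and MEK act.

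The libraries held 37.1 to 77.3 M estimated counts each (M, mega). Ribosomal RNA genes took 15.01 to 19.97% of the counts in high fat libraries with inhibitors and 21.7 to 50.01% in those without, and 4.10 to 8.37% in ketogenic libraries with inhibitors and 15.2 to 33.7% in those without. Replicate 4 of the high fat group without inhibitors stood apart in MMP1, MMP15 and TIMP2, and replicate 4 of the ketogenic group with inhibitors in MMP1 and TIMP1. At 58.1 M counts with 22.3% ribosomal RNA, and at 52.3 M with 8.37%, neither lay outside the range of the other libraries. Results that rest on them are given with and without them. Both libraries were picked out by the values of these same genes. Fold changes and p-values without them therefore describe sensitivity and are no independent support. Of the melanoma markers, SOX10 averaged 797 CPM (counts scaled to a common library size with TMM factors), whereas the pigment genes MLANA and TYRP1 averaged at most 0.451 CPM in any group. Summed markers of fibroblasts and stroma were lower in high fat tumours with inhibitors (66.3 to 107 CPM over 12 genes) than in those without (142 to 170.3 CPM), and summed endothelial markers were higher (79.5 to 89.1 CPM over 9 genes, against 23.0 to 42.9 CPM). The members of the stromal list did not move alike on the high fat diet. Of 11 tested, 3 fell and 1, COL3A1, rose (log2 2.08, edgeR adjusted p = 0.00817). Of all genes, 42.3% passed an adjusted p of 0.05 there (20.6% higher, 21.7% lower). The median log2 fold change of the 11 was 0.33. The median gene of the list stood at 1.91 to 5.48 CPM with inhibitors, against 1.31 to 2.22 CPM without. Both sums overlapped between the 2 ketogenic groups. The endothelial sum was mostly KDR, and the endothelial cadherin CDH5 averaged at most 0.017 CPM in any group. Neither list had a gene at 0 in all libraries, while the neutrophil gene MPO was at 0 throughout. Whether mouse reads were removed is not given in the sources used here. Fewer cells of a type and less RNA per cell cannot be told apart in such bulk libraries, and the part of these differences in the results was not tested.

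Per kilobase of exon and averaged over the 16 libraries, the TIMP genes outranked the proteases. By group mean this held except in high fat tumours with inhibitors. There MMP14 averaged 49.7 ± 4.08 CPM per kb and TIMP2 46.1 ± 3.47 (SD, n = 4). Over the 16 libraries, TIMP1 stood at 1051 CPM per kb, TIMP3 at 242 and TIMP2 at 46.1. MMP14 followed at 38.8 CPM per kb and MMP2 at 27.1, then MMP17 at 15.2, MMP15 at 12.0 and MMP16 at 8.47. In 4 pairs of neighbours the larger SD over the 16 libraries exceeded or neared the gap between the means: TIMP2 and MMP14 (SD 6.49 and 7.36 CPM per kb), MMP17 and MMP15 (SD 2.75 and 3.37), MMP15 and MMP16 (SD 3.37 and 1.82), and MMP1 and MMP24 (SD 1.59 and 0.0552). MMP1 at 1.47 CPM per kb and MMP24 at 0.149 came last, and both rest on few counts: 9 to 609 estimated counts per library for MMP1, and 13.97 to 65.95 for MMP24. MMP24 lies within its antisense gene MMP24-AS1, which averaged 23.4 CPM, and 16 of its 16 values were not whole numbers, so its reads may have been shared between the genes and its values are uncertain. TIMP1 and TIMP3 lie inside SYN1 and SYN3 on the opposite strand, which averaged 0.707 and 3.30 CPM. The strand setting of the counting is not given in the sources used here.

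The genes also differed in how far they varied. MMP1 spanned 49.5-fold between its lowest and highest library, and its SD of 1.66 on the log2 CPM scale was above that of 96.8% of tested genes. TIMP1 spanned 7.19-fold (SD 0.75, above 83.2% of genes), whereas MMP14 spanned 1.74-fold and TIMP2 1.83-fold (SD 0.23, above 28.7% of genes).

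In the annotation (GENCODE release 29, GRCh38), MMP14 (ENSG00000157227) spans chr14:22836557-22849027 on the plus strand, TIMP1 (ENSG00000102265) chrX:47582313-47586789 on the plus strand and TIMP3 (ENSG00000100234) chr22:32801701-32863043 on the plus strand. MMP2 (ENSG00000087245) spans chr16:55389700-55506691 on the plus strand, MMP1 (ENSG00000196611) chr11:102789920-102798160 on the minus strand and TIMP2 (ENSG00000035862) chr17:78852977-78925387 on the minus strand. On the plus strand, MMP15 (ENSG00000102996) spans chr16:58025566-58046901, MMP17 (ENSG00000198598) chr12:131828393-131851783 and MMP24 (ENSG00000125966) chr20:35226654-35277000. RefSeq promoters (GRCh38.p14, 250 bases before to 50 after the start) were at hand for 5 of the 10 genes: MMP14, MMP15, MMP24, TIMP1 and TIMP3. Those of MMP14 (chr14:22836335-22836634, plus strand), TIMP1 (chrX:47582186-47582485, plus strand) and TIMP3 (chr22:32801455-32801754, plus strand) are shown because MMP14 and TIMP3 hold the calls reported here and TIMP1 the highest log2 fold change on the high fat diet. Capitals mark matches on either strand to GGGCGG, the core letters bound by SP1, or to CCGGAA, an ETS motif.
MMP14: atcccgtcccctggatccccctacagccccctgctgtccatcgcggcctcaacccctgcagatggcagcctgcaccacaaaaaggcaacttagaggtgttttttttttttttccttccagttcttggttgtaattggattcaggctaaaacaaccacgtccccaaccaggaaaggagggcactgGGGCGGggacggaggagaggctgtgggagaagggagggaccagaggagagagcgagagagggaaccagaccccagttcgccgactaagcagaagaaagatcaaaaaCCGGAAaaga
TIMP1: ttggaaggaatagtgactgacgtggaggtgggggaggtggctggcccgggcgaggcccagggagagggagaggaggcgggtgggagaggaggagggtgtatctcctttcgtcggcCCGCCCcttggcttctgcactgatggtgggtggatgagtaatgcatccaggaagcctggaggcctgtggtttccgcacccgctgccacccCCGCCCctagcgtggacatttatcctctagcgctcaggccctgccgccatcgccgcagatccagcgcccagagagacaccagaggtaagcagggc
TIMP3: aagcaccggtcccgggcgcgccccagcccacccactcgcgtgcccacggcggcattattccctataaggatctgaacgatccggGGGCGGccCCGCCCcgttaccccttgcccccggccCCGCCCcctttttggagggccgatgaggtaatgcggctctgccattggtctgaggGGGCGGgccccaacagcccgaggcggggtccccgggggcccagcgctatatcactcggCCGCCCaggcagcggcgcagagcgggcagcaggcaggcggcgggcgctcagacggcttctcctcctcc
The MMP14 promoter held 1 SP1 match and 1 ETS match, TIMP1 held 2 SP1 matches and TIMP3 held 5. Of 34796 promoters of the same length, 44.9% held GGGCGG and 17.2% held CCGGAA. The AP-1 motif TGANTCA, found in 7.73% of all promoters, and TATAAA, found in 11.6%, were in none of the 5. Only these exact letters were searched for each motif, so AP-1 or ETS sites with other letters were not counted. GC content was 55.0% in the MMP14 promoter, 65.0% in that of TIMP1 and 72.7% in that of TIMP3, with a median of 58.7% over all promoters.

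The first comparison asked how tumours that grew under the inhibitors differ from those without them on the high fat diet. MMP14 rose 1.56-fold with inhibitors, and it was the single gene of the 10 past the test (edgeR quasi-likelihood test, adjusted p under 0.05 over all genes tested). No gene of the 10 fell. That is 1 of 10, against 42.3% of all genes called (20.6% higher, 21.7% lower). The 10 log2 fold changes ran from -0.38 for MMP15 to 0.99 for TIMP1, with a median of 0.23, while the median of all genes was -0.03. MMP14 and MMP16 were the 2 genes whose groups did not overlap, against 44.7% of all genes. At an unadjusted p under 0.05 there were 5 of 10 (51.1% of all genes), DESeq2 called 2 (45.6%), and limma voom with quality weights called 8, 5 of them higher and 3 lower (62.3%). Without replicate 4 of the high fat group without inhibitors, edgeR called 6 (4 higher, 2 lower; 41.8% of genes).

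**Figure D1:**
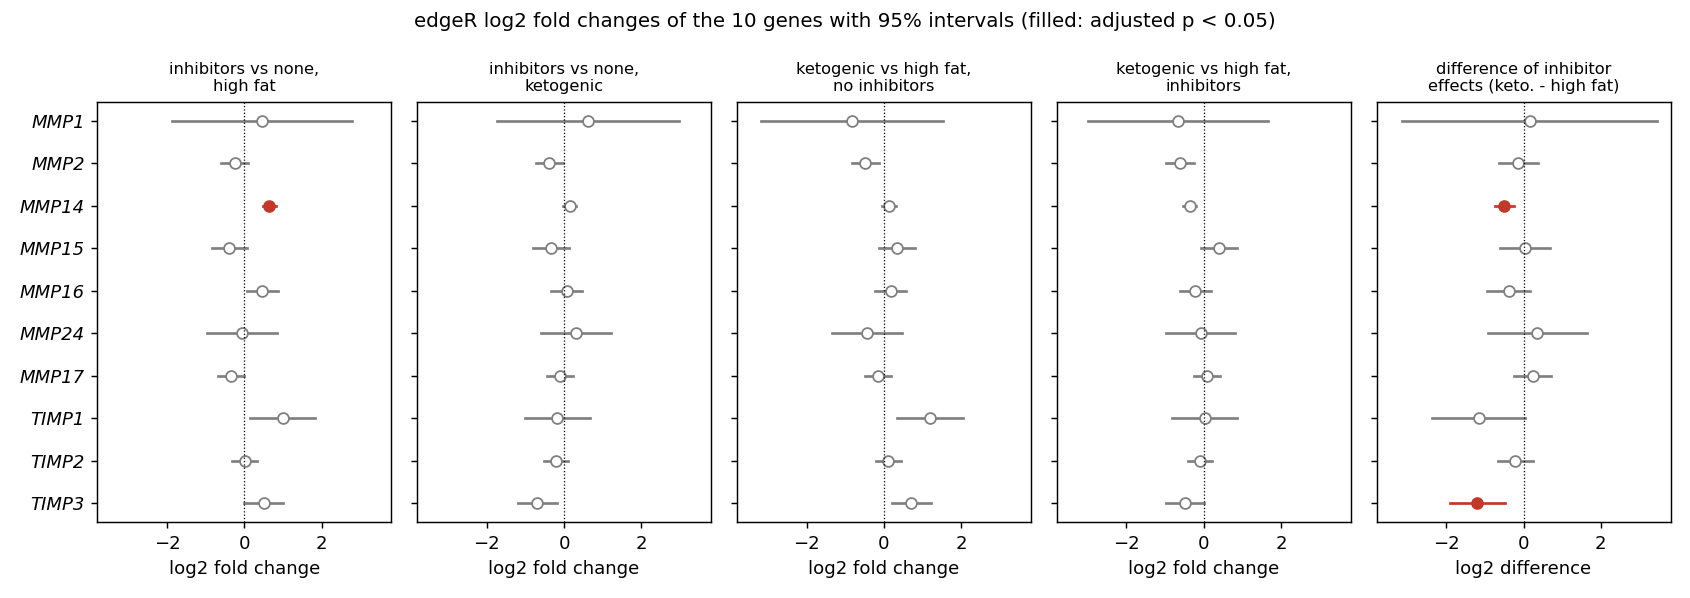
The 10 genes run down each panel, and the x axis gives edgeR log2 fold changes, or their difference in the last panel, with 95% intervals over 4 libraries per group; filled red points passed an adjusted p of 0.05. The 3 filled points are MMP14 at 0.64 on the high fat diet and MMP14 at -0.49 and TIMP3 at -1.19 in the difference of inhibitor effects.

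On the ketogenic diet, inhibitors against none called 0 of the 10 in edgeR, against 1.74% of all genes (0.856% higher, 0.887% lower). At an unadjusted p under 0.05 there were 2, MMP2 and TIMP3, both lower (18.7% of all genes), DESeq2 called 0 (5.50%) and voom called 2, both lower (9.14%). The log2 fold changes ran from -0.69 for TIMP3 to 0.62 for MMP1, with a median of -0.14 (0.01 over all genes). MMP14 and TIMP3 had groups that did not overlap, against 10.3% of all genes. Without replicate 4 of the ketogenic group with inhibitors, 0 were called (1.24% of genes).

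The inhibitor effects on the 2 diets were then compared with each other, as the ketogenic effect minus the high fat effect. The median difference over the 10 genes was -0.17, against 0.03 over all genes. MMP14 and TIMP3 were called, both with a lower effect on the ketogenic diet: 2 of 10, against 9.02% of all genes (4.36% higher, 4.66% lower). At an unadjusted p under 0.05 there were 2 (28.5% of all genes), DESeq2 called 2 (15.5%) and voom called 4 (32.9%). Without replicate 4 of the high fat group without inhibitors there were 3 (10.4% of genes), and without replicate 4 of the ketogenic group with inhibitors also 3 (16.2%). Both effects are measured within this difference, so the 3 comparisons share their libraries and are not independent of each other.

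Between the diets, tumours without inhibitors had 0 of the 10 called in edgeR, against 13.5% of all genes (7.99% higher, 5.51% lower on the ketogenic diet). TIMP1, TIMP3 and MMP2 had an unadjusted p under 0.05 (30.7% of all genes), DESeq2 called 2 (19.7%), and voom called 3 (40.3%). The median log2 difference of the 10 genes was 0.12 (-0.02 over all genes). MMP2 and MMP14 had groups that did not overlap, against 25.5% of all genes. Without replicate 4 of the high fat group without inhibitors 2 were called, TIMP1 and TIMP3 (12.9% of genes).

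Tumours with inhibitors also had 0 of the 10 called between the diets, against 0.169% of all genes (0.05% higher, 0.119% lower on the ketogenic diet). MMP2 and MMP14 had an unadjusted p under 0.05 (12.7% of all genes), DESeq2 called these 2 (2.15%), and voom called 4, all lower on the ketogenic diet (6.57%). The median log2 difference was -0.16 (0.02 over all genes). MMP14 was the single gene whose groups did not overlap (7.14% of all genes), and without replicate 4 of the ketogenic group with inhibitors 0 were called (0.289% of genes). The no-inhibitor and inhibitor libraries in these diet comparisons are the same ones used above.

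MMP14 encodes the membrane-anchored collagenase that activates the MMP2 precursor. With inhibitors on the high fat diet it stood at 194, 182, 200.1 and 166 CPM, against 115, 119, 116 and 125 CPM without them. The lowest library with inhibitors lay well above the highest without. The means were 186 ± 15.2 and 119 ± 4.30 CPM (SD, n = 4 each), and the log2 fold change was 0.64 (SE 0.08, 95% interval 0.47 to 0.81, edgeR adjusted p = 5.10e-05). The call was kept in 18 of 18 alternatives, with log2 values of 0.61 to 0.92.

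Ketogenic tumours had MMP14 at 148, 135, 158 and 137 CPM with inhibitors, against 135, 129.5, 132 and 125 CPM without. The groups came close to touching but did not overlap, and the log2 fold change of 0.15 (SE 0.08, 95% interval -0.02 to 0.32, edgeR adjusted p = 0.334) did not pass. The inhibitor effect was thus 0.49 lower on the log2 scale than on the high fat diet (SE 0.11, 95% interval -0.73 to -0.25, edgeR adjusted p = 0.0202). The call of the difference was lost in 1 of 16 fits that left out a library (adjusted p = 0.0507, without replicate 1 of the ketogenic group without inhibitors). It was lost too without the 3 libraries of over 30% ribosomal RNA (-0.47, adjusted p = 0.160) and with scaling by library size alone (-0.50, adjusted p = 0.248). Between diets MMP14 differed by -0.36 with inhibitors (SE 0.08, adjusted p = 0.0853) and by 0.13 without them (SE 0.08, adjusted p = 0.274). By group mean MMP14 ran, from the highest, high fat with inhibitors, ketogenic with inhibitors, ketogenic without and high fat without, and no 2 neighbours in that order overlapped. For the other 9 genes all neighbours in the order of group means overlapped.

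**Figure D2:**
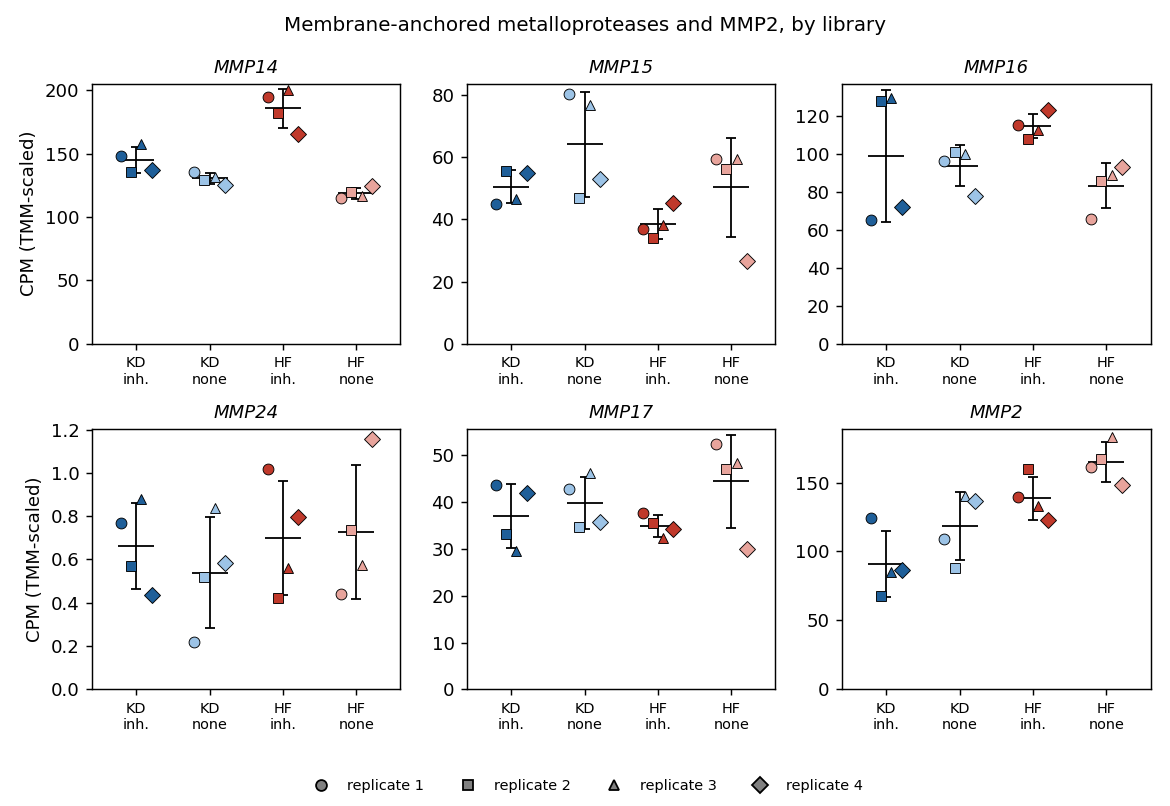
CPM on TMM-scaled library sizes (y axes start at 0) of the 5 membrane-anchored proteases and MMP2 in 16 libraries; HF is the high fat and KD the ketogenic diet, inh. means with inhibitors, symbols mark the replicate number, and bars give the mean ± SD of 4 libraries. MMP14 separates all 4 groups, at 166 to 200.1 CPM in high fat tumours with inhibitors and 115 to 125 CPM in those without.

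The other membrane-anchored proteases did not pass in edgeR in any comparison. MMP16, a transmembrane protease that like MMP14 can activate the MMP2 precursor, stood at 115, 108, 113 and 124 CPM in high fat tumours with inhibitors, against 66.0, 85.8, 89.0 and 93.3 CPM without. These groups did not overlap, and the log2 fold change was 0.46 (SE 0.19, edgeR adjusted p = 0.0595; 0.0444 in DESeq2). In ketogenic tumours MMP16 was spread widely with inhibitors, at 65.3, 128, 129.9 and 72.4 CPM, against 96.7, 101, 100.1 and 78.0 CPM without. The ketogenic inhibitor group thus fell into 2 high and 2 low libraries, and its log2 fold change was 0.07 (SE 0.19, adjusted p = 0.874).

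MMP15, another transmembrane protease, stood at 36.97, 34.0, 38.3 and 45.3 CPM in high fat tumours with inhibitors, against 59.5, 56.2, 59.4 and 26.6 CPM without. All libraries with inhibitors lay below 3 of those without and above replicate 4. The log2 fold change was -0.38 (SE 0.22, edgeR adjusted p = 0.168), and without that replicate it was -0.59 (adjusted p = 0.00890). MMP17, a protease held in the membrane by a lipid anchor, showed the same layout. It stood at 37.7, 35.5, 32.2 and 34.3 CPM with inhibitors on the high fat diet, against 52.4, 47.1, 48.3 and 29.99 CPM without, a log2 fold change of -0.35 (SE 0.16, adjusted p = 0.0897). Without replicate 4 it was -0.50 (adjusted p = 0.00841). In ketogenic tumours MMP15 averaged 50.6 ± 5.44 CPM with inhibitors and 64.2 ± 16.8 CPM without, and MMP17 37.05 ± 6.83 and 39.9 ± 5.56 CPM (SD, n = 4 each). MMP24, a transmembrane protease best known from the nervous system, averaged between 0.539 and 0.727 CPM in the 4 groups, with edgeR adjusted p of at least 0.516 in each comparison.

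MMP2, the gelatinase that MMP14 activates, had the lower mean with inhibitors and on the ketogenic diet, yet passed in no comparison in edgeR. High fat tumours with inhibitors had 139, 159, 133 and 123 CPM, against 161, 167, 183 and 148 CPM without. Ketogenic tumours had MMP2 at 125, 67.4, 85.4 and 86.3 CPM with inhibitors, against 109, 88.1, 139.9 and 137 CPM without. Both pairs of groups overlapped, with log2 fold changes of -0.25 on the high fat diet (SE 0.17, adjusted p = 0.238) and -0.38 on the ketogenic diet (SE 0.17, adjusted p = 0.236).

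Between the diets, MMP2 without inhibitors was at 88.1 to 139.9 CPM on the ketogenic diet, against 148 to 183 CPM on the high fat diet. These ranges did not overlap, and the log2 difference was -0.48 (SE 0.17, edgeR adjusted p = 0.0663; DESeq2 0.0374). It passed without replicate 4 of the ketogenic group without inhibitors (-0.55, adjusted p = 0.0489). With inhibitors the log2 difference was -0.61 (SE 0.17, edgeR adjusted p = 0.145; DESeq2 0.0317). Scaled by library size alone, the high fat inhibitor value of MMP2 was 0.04, where the median of all genes was 0.25 (-0.03 with TMM scaling), so MMP2 lay below that median on both scales. Summed stromal markers were 86.4 to 145 CPM in ketogenic tumours without inhibitors, against 142 to 170.3 CPM in high fat tumours without, and their part in the MMP2 values was not tested.

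MMP1, the collagenase that opens fibrillar collagen, was low and erratic. High fat tumours with inhibitors had 0.946, 3.42, 6.002 and 6.38 CPM, against 0.964, 0.282, 0.215 and 10.7 CPM without. Replicate 4 without inhibitors was thus the highest MMP1 library of the 16, while its 3 fellow libraries stayed under 1 CPM. The log2 fold change was 0.46 (SE 1.08, edgeR adjusted p = 0.757) with it and 3.05 (adjusted p = 0.0210) without it. Ketogenic tumours had 0.589, 0.826, 1.38 and 7.78 CPM with inhibitors, against 1.42, 3.06, 1.56 and 0.800 CPM without. Here too 1 library, replicate 4 with inhibitors, lay far above the rest of its group, and the log2 fold change was 0.62 (SE 1.10, adjusted p = 0.809); without that library the estimate was -0.89 and did not pass. With both replicate 4 libraries left out, the difference of the effects was -3.94 (adjusted p = 0.0118), against 0.16 (SE 1.54, adjusted p = 0.960) with all libraries.

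**Figure D3:**
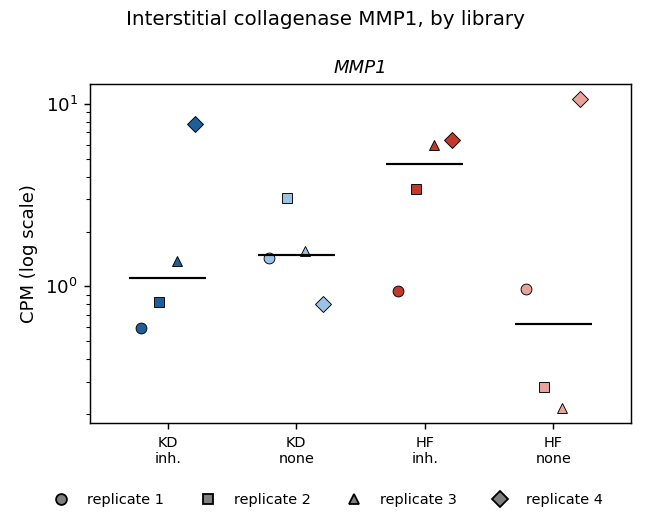
MMP1 in CPM on a log axis in 16 libraries, with HF for the high fat and KD for the ketogenic diet and inh. for inhibitors; symbols mark the replicate number and lines the group medians (1.10, 1.49, 4.71 and 0.623 CPM, left to right). Replicate 4 of high fat without inhibitors (10.7 CPM) and of ketogenic with inhibitors (7.78 CPM) lie above the other libraries of their groups.

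TIMP1 is a secreted inhibitor of most soluble metalloproteases. In high fat tumours with inhibitors it stood at 1219.6, 1519.6, 1976 and 1976 CPM, against 617, 688, 464 and 1603 CPM without. Only replicate 4 without inhibitors reached into the range of the libraries with inhibitors. The log2 fold change was 0.99 (SE 0.40, 95% interval 0.14 to 1.84, edgeR adjusted p = 0.0582), and it was 1.504 (adjusted p = 0.00346) without that replicate. Ketogenic tumours had TIMP1 at 1123, 1169, 1175 and 3339 CPM with inhibitors, against 1420.3, 2196, 1801 and 2250.2 CPM without. Here 3 libraries with inhibitors lay below all of those without and replicate 4 above them. The log2 fold change was -0.17 (SE 0.40, adjusted p = 0.854), and -0.73 without replicate 4, which did not pass.

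The TIMP1 effects of the inhibitors differed between the diets by -1.16 on the log2 scale (SE 0.56, 95% interval -2.36 to 0.04, edgeR adjusted p = 0.189), which did not pass with all libraries. It passed without replicate 4 of the high fat group without inhibitors (-1.68, adjusted p = 0.0343) and without replicate 4 of the ketogenic group with inhibitors (-1.72, adjusted p = 0.0229). Without inhibitors, TIMP1 averaged 1917 ± 387 CPM on the ketogenic and 843 ± 515 CPM on the high fat diet (SD, n = 4 each). That is a log2 difference of 1.18 (SE 0.40, adjusted p = 0.0619), which was 1.70 (adjusted p = 0.00950) without replicate 4 of the high fat group. With inhibitors the diets differed by 0.02 (SE 0.40, adjusted p = 0.989).

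TIMP3 binds to the extracellular matrix and also inhibits ADAM proteases. High fat tumours with inhibitors had 911, 1383, 1308 and 1381 CPM, against 722, 779.8, 634 and 1383 CPM without. All libraries with inhibitors exceeded 3 of those without, and replicate 4 without inhibitors was level with the highest of them. The log2 fold change was 0.50 (SE 0.24, edgeR adjusted p = 0.0958), and 0.81 (adjusted p = 0.00527) without that replicate. The order was the other way round in ketogenic tumours: 595, 853, 892 and 1219 CPM with inhibitors, against 1515, 1644, 1297 and 1291 CPM without. These groups did not overlap, and the log2 fold change was -0.69 (SE 0.24, 95% interval -1.19 to -0.19, adjusted p = 0.139).

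The difference between the 2 TIMP3 effects was -1.19 on the log2 scale (SE 0.33, 95% interval -1.90 to -0.49, edgeR adjusted p = 0.0376). This call was lost in 11 of 16 fits that left out 1 library, with an adjusted p of at most 0.0848 (without replicate 2 of the ketogenic group without inhibitors) and values of -1.498 to -1.04. It was also lost without the 3 libraries of over 30% ribosomal RNA (-0.85, adjusted p = 0.255) and with scaling by library size alone (-1.15, adjusted p = 0.112). Without inhibitors TIMP3 was at 1437 ± 173 CPM on the ketogenic and 879.8 ± 341 CPM on the high fat diet (SD, n = 4 each), a log2 difference of 0.71 (SE 0.24, adjusted p = 0.0561). Without replicate 4 of the high fat group it was 1.01 (adjusted p = 0.00843). With inhibitors the diets differed by -0.49 (SE 0.24, adjusted p = 0.404).

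**Figure D4:**
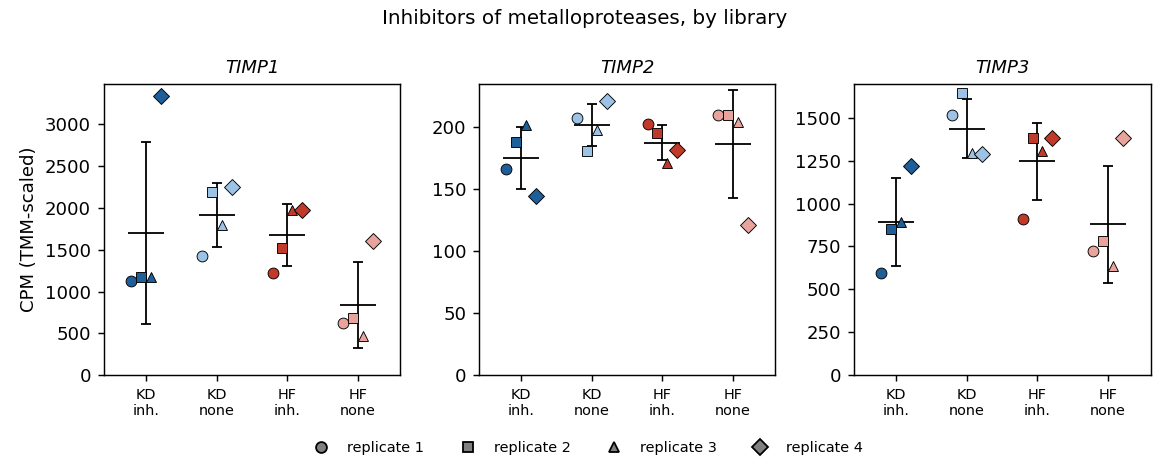
CPM on TMM-scaled library sizes (y axes start at 0) of TIMP1, TIMP2 and TIMP3 in 16 libraries, with HF for the high fat and KD for the ketogenic diet and inh. for inhibitors; symbols mark the replicate number and bars the mean ± SD of 4 libraries. TIMP1 and TIMP3 have 1 high library in the high fat group without inhibitors (1603 and 1383 CPM), and TIMP3 separates the ketogenic groups at 595 to 1219 CPM with inhibitors and 1291 to 1644 CPM without.

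TIMP2, which both inhibits MMP2 and helps MMP14 to activate it, was the steadiest of the 3 TIMP genes. In high fat tumours with inhibitors it stood at 203, 195, 171 and 182 CPM, against 209.7, 210.4, 204 and 121 CPM without. Replicate 4 without inhibitors was the lowest TIMP2 library of the 16. Ketogenic tumours had 167, 188, 202 and 144 CPM with inhibitors, against 208, 181, 198 and 222 CPM without. The log2 fold change was 0.01 on the high fat diet (SE 0.15, adjusted p = 0.965) and -0.21 on the ketogenic diet (SE 0.15, adjusted p = 0.493), and neither passed in edgeR. The high fat value without replicate 4 of the group without inhibitors was -0.15 (adjusted p = 0.296), and without replicate 4 of the ketogenic group with inhibitors the ketogenic value was -0.12 (adjusted p = 0.796). The log2 ratio of MMP14 to TIMP2 counts averaged -0.02 ± 0.17 in high fat tumours with inhibitors and -0.62 ± 0.44 in those without, and -0.27 ± 0.18 in ketogenic tumours with inhibitors and -0.63 ± 0.14 in those without (SD, n = 4 each). In the high fat group without inhibitors 3 libraries had ratios of -0.87 to -0.81 and replicate 4 had 0.04, inside the range of the libraries with inhibitors.

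**Figure D5:**
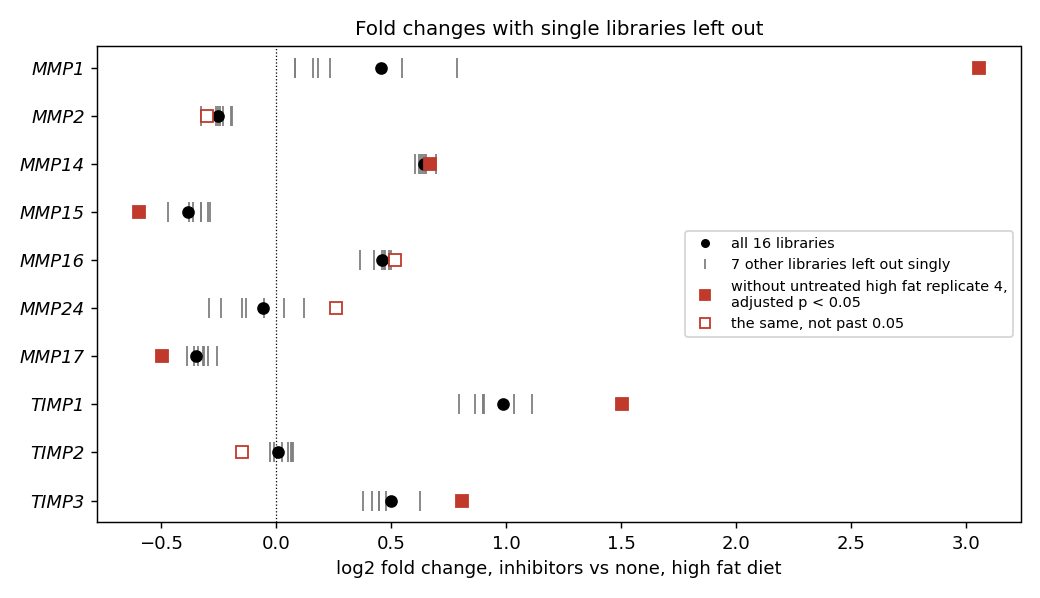
Log2 fold changes of inhibitors against none on the high fat diet for the 10 genes: black points use all 16 libraries, grey ticks leave out the other 7 high fat libraries singly, and squares leave out replicate 4 of the group without inhibitors. The squares of MMP1 (3.05), TIMP1 (1.504), TIMP3 (0.81), MMP15 (-0.59) and MMP17 (-0.50) passed the test where the black points did not, and MMP14 passed in each fit. That replicate was picked out by its values in some of these genes, so the squares show sensitivity and are no independent support.

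The wider family was sparse in these tumours. A list of other MMP genes with TIMP4 and RECK held 18 genes, of which 10 passed the low-count filter, and MMP26 was at 0 in all libraries. On the high fat diet 2 rose with inhibitors and 2 fell, with a median log2 fold change of -0.08, so that 4 of 10 were called, against 42.3% of all genes (20.6% higher, 21.7% lower). MMP12, a macrophage elastase, rose by 1.02 (SE 0.30, 1.63 against 0.807 CPM, adjusted p = 0.0134), and TIMP4 by 2.53 (SE 0.65, 0.377 against 0.0643 CPM, adjusted p = 0.00557), a value that rests on 13 counts over the 4 libraries without inhibitors. MMP11, a protease known from tumour stroma, fell by 1.53 (SE 0.30, 0.893 against 2.58 CPM, adjusted p = 0.000872). RECK, a membrane-anchored inhibitor of metalloproteases, fell by 0.68 (SE 0.22, 8.78 against 14.1 CPM, adjusted p = 0.0190), and lost its call in 2 of 8 fits without a library (adjusted p up to 0.0589).

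Summed markers of leukocytes were higher in high fat tumours with inhibitors (7.09 to 8.97 CPM over 7 genes) than without (1.47 to 2.32 CPM), and those of macrophages and neutrophils were lower (49.3 to 60.8 CPM over 9 genes, against 61.0 to 78.2 CPM). That sum was mostly CD68, a lysosomal protein that fell by 0.64 (34.4 against 53.6 CPM, edgeR adjusted p = 0.0227) and lost its call in 4 of 8 fits without a library, whereas lysozyme, LYZ, of the same list rose by 2.74 (3.73 against 0.550 CPM, adjusted p = 6.51e-05). Their part in the values of MMP12 and of MMP8 was not tested.

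The 6 other tested genes of the wider MMP list passed in no comparison in edgeR. On the high fat diet DESeq2 called 5 of its 10 tested genes (3 higher, 2 lower) and voom 7 (5 higher, 2 lower), against 45.6% and 62.3% of all genes. MMP8, the neutrophil collagenase, averaged 5.01 CPM in high fat tumours with inhibitors and 2.41 CPM without (log2 1.05, SE 0.49, adjusted p = 0.0924), and 4.71 and 4.38 CPM on the ketogenic diet. MMP9, the second gelatinase, averaged at most 0.310 CPM in any group, MMP10 at most 0.670, MMP19 at most 0.983, MMP23B at most 0.495 and MMP25 at most 1.02 CPM. In ketogenic tumours 0 of the 10 passed in edgeR with inhibitors against none (1.74% of all genes). At an unadjusted p under 0.05 there was 1 (18.7% of all genes), while DESeq2 called 1 (5.50%) and voom 1 (9.14%). Between the diets TIMP4 alone passed in edgeR, without inhibitors (13.5% of all genes; log2 2.19, adjusted p = 0.0362), and lost its call in 7 of 8 fits without a library.

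Of 28 listed ADAM and ADAMTS proteases, the relatives that TIMP3 can also inhibit, 22 were tested. On the high fat diet 5 rose with inhibitors and 7 fell, which is 12 of 22, against 42.3% of all genes (20.6% higher, 21.7% lower). The median log2 fold change was 0.06. Without replicate 4 of the group without inhibitors 3 rose and 8 fell (41.8% of all genes). ADAMTS4, an aggrecanase, rose by 1.17 (SE 0.25, 58.1 against 25.7 CPM, adjusted p = 0.00159). ADAMTS7 fell by 1.10 (SE 0.19, 5.19 against 11.1 CPM, adjusted p = 0.000399), ADAMTS13, which cuts von Willebrand factor, by 1.45 (SE 0.32, 3.29 against 8.95 CPM, adjusted p = 0.00237) and ADAMTS17 by 1.11 (SE 0.28, 0.430 against 0.930 CPM, adjusted p = 0.00524). On the ketogenic diet 0 passed in edgeR (1.74% of all genes). At an unadjusted p under 0.05 there were 10 (18.7% of all genes), while DESeq2 called 4 (5.50%) and voom 4 (9.14%). The difference of effects was called in edgeR for 1 of 22 (9.02% of all genes), ADAMTS13 (1.56, SE 0.46, adjusted p = 0.0433). Its call was lost in 10 of 16 fits without a library.

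Among 19 genes that activate precursors of metalloproteases or partner with them at the surface, 4 rose and 3 fell with inhibitors on the high fat diet, which is 7 of 19, against 42.3% of all genes. Their median log2 fold change was 0.23. Leaving out replicate 4 of the group without inhibitors gave 7 higher and 3 lower (41.8% of all genes). FURIN, a convertase that activates the MMP14 precursor, rose by 0.74 (SE 0.17, 234 against 139.7 CPM, adjusted p = 0.00299), and PCSK7, a related convertase, by 0.46 (SE 0.09, 57.0 against 41.5 CPM, adjusted p = 0.00120). SERPINE2, an inhibitor of serine proteases such as thrombin, rose by 0.72 (SE 0.17, 5309.9 against 3218 CPM, adjusted p = 0.00265). The convertase gene PCSK6 fell by 0.52 (SE 0.15, 4.25 against 6.11 CPM, adjusted p = 0.0105). In ketogenic tumours 0 of the 19 passed in edgeR (1.74% of all genes). At an unadjusted p under 0.05 there were 5 (18.7% of all genes), while DESeq2 called 1 (5.50%) and voom 4 (9.14%). FURIN there averaged 183 CPM with inhibitors and 181 CPM without, and the difference of its effects was -0.73 (SE 0.24, adjusted p = 0.0682). The difference was called for 2 of 19 (9.02% of all genes), PCSK6 (0.97, SE 0.21, adjusted p = 0.0172) and SERPINE2 (-0.78, SE 0.23, adjusted p = 0.0457), the call of SERPINE2 being lost in 12 of 16 fits without a library.

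Of 15 AP-1 and ETS factors, 3 rose and 1 fell with inhibitors on the high fat diet, which is 4 of 15, against 42.3% of all genes. Their median log2 fold change was 0.16, and 4 rose and 2 fell without replicate 4 of the group without inhibitors (41.8% of all genes). JUN, a core subunit of AP-1, rose by 2.43 (SE 0.33, 53.3 against 9.87 CPM, adjusted p = 9.39e-05), its relative in AP-1 FOSB by 1.03 (SE 0.30, 11.1 against 5.40 CPM, adjusted p = 0.0111), and the ETS factor ELK1 by 0.53 (SE 0.10, 80.1 against 55.6 CPM, adjusted p = 0.000658). The ETS factor ETV4, the highest gene of the list at a mean of 152 CPM over the 16 libraries, was the one that fell (log2 -0.41, edgeR adjusted p = 0.0130). Its call was lost in 0 of 8 fits without a library. On the ketogenic diet 0 passed in edgeR (1.74% of all genes). At an unadjusted p under 0.05 there were 5 (18.7% of all genes), while DESeq2 called 1 (5.50%) and voom 2 (9.14%). JUN stood there at 31.9 CPM with inhibitors and 13.6 CPM without (log2 1.23, SE 0.32, edgeR adjusted p = 0.0629). Without inhibitors, 1 of the 15 was higher and 1 lower on the ketogenic than on the high fat diet (13.5% of all genes called). ETS2 was the lower one (13.4 against 22.6 CPM, log2 -0.75, SE 0.21, edgeR adjusted p = 0.0269), and lost its call in 5 of 8 fits without a library. ELK1 was the higher one (log2 0.31, edgeR adjusted p = 0.0470), with its call lost in 6 of 8. The difference of inhibitor effects was called for 1 of 15 (9.02% of all genes), ELK1 (-0.57, edgeR adjusted p = 0.0240), a call lost in 4 of 16 fits.

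The collagens and basement membrane proteins that these enzymes cut were tested as 20 genes. With inhibitors 9 fell and 1 rose on the high fat diet, against 21.7% of all genes lower and 20.6% higher, with a median log2 fold change of -0.26. There were 7 lower and 2 higher without replicate 4 of the group without inhibitors (41.8% of all genes called). On the ketogenic diet 4 fell and 0 rose in edgeR, against 0.887% of all genes lower and 0.856% higher, with a median of -0.48. COL5A1, a chain of a fibril-forming collagen, fell by 1.27 on the high fat diet (SE 0.14, 17.8 against 43.0 CPM, adjusted p = 2.64e-05) and by 1.08 on the ketogenic diet (SE 0.14, 13.3 against 28.3 CPM, adjusted p = 0.00163). COL5A2, the partner chain, fell by 0.63 on the high fat diet (292 against 452 CPM, adjusted p = 0.00406) and by 0.86 on the ketogenic diet (270.4 against 490.2 CPM, adjusted p = 0.0109). COL4A2, of basement membrane, fell by 0.47 on the high fat diet (1625 against 2245 CPM, adjusted p = 0.0151) and by 0.59 on the ketogenic diet (1421 against 2145 CPM, adjusted p = 0.0430), calls lost in 2 of 8 high fat and 6 of 8 ketogenic fits without a library. COL6A2, of the pericellular matrix, fell by 0.86 on the high fat diet (SE 0.16, 286 against 519.6 CPM, adjusted p = 0.000510) and averaged 361 CPM with inhibitors and 378 CPM without on the ketogenic diet. Summed stromal markers, a list that shares 3 genes with this one, were 66.3 to 107 CPM in high fat tumours with inhibitors, against 142 to 170.3 CPM without, and did not overlap. In ketogenic tumours they overlapped, at 77.7 to 119 CPM with inhibitors and 86.4 to 145 CPM without, and their part in the collagen values was not tested.

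For the 3 most variable of the 10 genes, the tested genes with the most similar profile over the 16 libraries were found by the root mean square difference of mean-centred log2 CPM. For MMP1 these included S100A2 (0.75) and IL11 (0.85), with a median of 1.65 over all genes. For TIMP1 they were DDAH2 (0.24), CAPS (0.26) and S100A6 (0.27), with a median of 0.80. For MMP24 they were LOC101927550 (0.37), ZNF470 (0.38) and RGAG4 (0.40), with a median of 0.65. These genes varied less (SD 0.51, 0.31 and 0.29 on the log2 scale) than MMP24 (SD 0.58). MMP24 rests on few counts, so a shared pattern cannot be read from these values.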

How the data were processed

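Poly-A RNA of 16 libraries was sequenced from lung tumours of A375 MA2-Luc melanoma, with 4 libraries in each of 4 groups named in the labels. The authors deposited RSEM expected counts (estimated counts per gene, not scaled for depth) for 26475 gene symbols. Per the submitters' processing notes, Bowtie2 2.1.0, RSEM 1.2.15 and the build hg38 were used, with roles not stated. The annotation, strandedness and handling of mouse reads are not stated there. Since 13.0% of the values were fractional, counts were rounded. After edgeR's filterByExpr, 16012 genes were fitted in edgeR 4.0.16 (R 4.3.3) with TMM scaling and robust quasi-likelihood dispersions, all 16 libraries in 1 model of group means with no covariate (common biological coefficient of variation 0.228). Tests were two-sided, p-values were adjusted by Benjamini-Hochberg over all genes tested, and the threshold was 0.05. SE is the log2 fold change over the square root of F, and intervals are 95%. There were 5 comparisons. CPM use TMM-scaled library sizes, and CPM per kb divide by the union of exons of protein-coding transcripts in GENCODE release 29. Totals of 37.1 to 77.3 M counts limit the precision for low genes most, and counting error alone is smaller than the spread between libraries for the others.

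Alternatives were DESeq2 1.42.0, limma 3.58.1 (voom with quality weights), RLE factors, library size alone, no low-count filter, ribosomal RNA genes removed, only the libraries compared, a replicate block and each library left out in turn. Leaving out both replicate 4 libraries that stood apart, or the 3 libraries of over 30% ribosomal RNA, was added after the data were seen. The genes, the lists and the tests were chosen with earlier results of these data known. Named outside the 10 genes are the tested members of the wider MMP list, up to 4 called genes per other list by smallest p, and the 3 most similar genes of the 3 most variable ones. ETV4 is named as well, as the gene of its list that fell with inhibitors on the high fat diet. Some genes that these rules take are not reported here. The fit was also run on simulated counts with known changes, as a check of the procedure. Libraries that stand apart were not simulated, so that check does not bear on them. Promoter letters come from RefSeq (GRCh38.p14), and motifs were searched on both strands.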

Additional observations from a re-analysis of the deposited data

Results flagged for a closer look

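Within groups of 4 libraries, 6 of 40 gene and group combinations held a library far from the others by Dixon's test. For a single combination of normally distributed values, chance gives about 1 in 20. The 40 are not independent, as most flags came from the same replicate 4 libraries, so an excess cannot be read from this count. In the high fat group without inhibitors, replicate 4 had 10.7 CPM of MMP1 (others 0.215 to 0.964), 26.6 CPM of MMP15 (others 56.2 to 59.5) and 121 CPM of TIMP2 (others 204 to 210.4). In the ketogenic group with inhibitors, replicate 4 had 7.78 CPM of MMP1 (others 0.589 to 1.38) and 3339 CPM of TIMP1 (others 1123 to 1175). In the high fat group with inhibitors, replicate 1 had 911 CPM of TIMP3 (others 1308 to 1383).

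The inhibitor effect differed between the diets in the edgeR test of the difference itself for 2 genes, MMP14 (-0.49, SE 0.11, adjusted p = 0.0202) and TIMP3 (-1.19, SE 0.33, adjusted p = 0.0376), each as the ketogenic effect minus the high fat effect.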

How the results depend on the processing

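Of the alternatives, RLE factors, no low-count filter and removal of ribosomal RNA genes kept all 50 gene results on their side of the threshold. For inhibitors on the high fat diet (1 of 10 genes called; percentages are shares of all genes called in the same fit), DESeq2 called 2 (45.6%), library size alone 3 (38.0%), only the libraries compared 2 (48.7%), voom 8 (62.3%) and both replicate 4 libraries left out 7 (48.4%), while single libraries left out gave 1 to 6 (33.5 to 41.8%). For inhibitors on the ketogenic diet (0 called), voom called 2 (9.14%) and both replicate 4 libraries left out 1 (2.64%), while single libraries left out gave 0 to 0 (0.542 to 2.69%). For the diets without inhibitors (0 called), DESeq2 called 2 (19.7%), library size alone 1 (10.3%), only the libraries compared 1 (21.5%), voom 3 (40.3%) and both replicate 4 libraries left out 2 (21.4%), while single libraries left out gave 0 to 2 (4.79 to 16.3%). For the diets with inhibitors (0 called), DESeq2 called 2 (2.15%), voom 4 (6.57%) and both replicate 4 libraries left out 1 (1.45%), while single libraries left out gave 0 to 0 (0.0185 to 0.289%). For the difference of effects (2 called), library size alone called 0 (1.49%), voom 4 (32.9%), both replicate 4 libraries left out 4 (21.4%) and libraries of over 30% ribosomal RNA left out 0 (0% of all genes), while single libraries left out gave 0 to 3 (2.51 to 16.2%). The difference of MMP1 effects (0.16) was -3.94 in voom and -3.94 with both replicate 4 libraries left out. Library size alone moved the median log2 of all genes up by 0.16 to 0.28 in the first 4 comparisons. Why the counts of called genes differed between the fits was not tested. The low counts of MMP1 and MMP24 limit what can be seen of them.

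The replicate numbers were shared by the 4 groups. Deviations of same-numbered libraries correlated at -0.16 to 0.19 over 24 pairs, with 4 pairs over 0.1, and 3 of 16 libraries matched their own number best. Pairing by number was thus not apparent. Such a check cannot exclude shared handling by number, and the labels do not state any pairing. With the replicate block, 4 of the 10 genes were called in high fat tumours with inhibitors against none (42.6% of all genes) and 0 in ketogenic ones (1.64%). The block gave 2 between the diets in tumours without inhibitors (14%), 0 in tumours with inhibitors (0.131%), and 3 for the difference of effects (8.95%).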
